A study of Homo sapiens with 4 samples.

Results

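The CCAAT/enhancer-binding protein (C/EBP) family was examined in 2 human liver tumour cell lines in which COP1 had been silenced. The genes were CEBPA, CEBPB, CEBPD, CEBPG and DDIT3, 5 of the 46427 gene numbers in the tables. They were chosen by name, as the liver members of the family together with DDIT3, and each was found by its NCBI Gene number. Huh7 and HepG2 are established lines from liver tumours, labelled as wild type. Each was transfected for 5 h with an siRNA at 20 nM, which was either a negative control (NC-siRNA) or directed at COP1 (COP1-siRNA), and RNA was taken 48 h later. Each of the 4 groups, named here by line and siRNA, had 1 library of polyadenylated RNA, and all 4 libraries carried the same batch label. With 1 library per group, a difference within a line cannot be set against a spread between replicates, and no p-value is given for it.

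C/EBP proteins are transcription factors of the basic leucine zipper (bZIP) class, which bind DNA as dimers with each other or with other bZIP proteins. In liver, C/EBPα sustains the genes of the mature hepatocyte, and C/EBPβ and C/EBPδ drive the acute-phase response to injury and inflammation. COP1 is the part of a ubiquitin ligase that recognises its substrates, and the pseudokinases TRIB1 and TRIB2 bring C/EBPα to it for degradation. The study's design thus lets the mRNA of C/EBPα, a known COP1 substrate, and of its family be compared with and without COP1-siRNA. Protein was not analysed here.

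COP1 itself (gene 64326) was at 19.7 TPM (transcripts per 1000000, a level per length of transcript) in Huh7 NC-siRNA and at 6.18 TPM in Huh7 COP1-siRNA. Its level in HepG2 was 26.9 and 16.1 TPM, and the log2 fold changes were −1.53 and −0.71. A log2 fold change is here the log2 of TPM + 1 in the COP1-siRNA library over TPM + 1 in its control, a scale that understates the change of genes with low TPM. The relative depth, taken as coverage divided by FPKM, was 1.13 times that of the control in Huh7 COP1-siRNA and 1.27 times in HepG2 COP1-siRNA. Read counts are not given in the tables. All 9 hepatocyte markers looked for were present in the 4 libraries, but 7 of the 9 were at least 2-fold higher in Huh7 with NC-siRNA (ALB 8117 against 1509 TPM, HNF4A 64.6 against 9.13 TPM). PTPRC and DCN, which mark leukocytes and fibroblasts, were at 0 in all 4 libraries, whereas KRT19, which marks bile duct cells, was at 53.2 to 207 TPM and LYZ, a myeloid marker, at 119 to 192 TPM. CD68, a macrophage marker, was at 15.6 to 58.2 TPM. COL1A1, a fibroblast marker, was at 2.33 and 2.47 TPM in HepG2 and at 0.051 and 0.085 TPM in Huh7.

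Each of the 5 genes stood on a single line of every table, above the limit of 1 TPM used for testing. CEBPA, CEBPB and CEBPD have a single exon each in GENCODE 29, CEBPG has 2 exons and DDIT3 has 3 or 4. In GRCh38 coordinates, chromosome 19 holds CEBPA (gene 1050) on its minus strand from 33299934 to 33302564 and CEBPG (gene 1054) on its plus strand from 33373709 to 33382686, so that the pair is 71145 bases apart. CEBPB (gene 1051) spans 50190583 to 50192690 of chromosome 20 on the plus strand, and DDIT3 (gene 1649) spans 57516588 to 57520517 of chromosome 12 on the minus strand. CEBPB shares 1487 bases with the antisense gene CEBPB-AS1, which was at 0.36 to 0.96 TPM. DDIT3 shares 68 bases with the end of MARS1 on the other strand, and MIR616 lies within DDIT3 on its own strand. The libraries kept the strand, but how reads of overlapping genes were divided is not given in the sources used here, so the values of CEBPB and DDIT3 are uncertain to that extent.

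The family is named for the CCAAT box, and the 250 bases before the RefSeq start site (GRCh38.p14) of CEBPA, CEBPB, CEBPG and DDIT3 were searched for CCAAT on both strands. CEBPG and DDIT3 each held 2 matches, and CEBPA and CEBPB held none. Of 34943 promoters of the same length, 32.0% held at least 1 match. CEBPD was left out of the search. With so few promoters searched, the share with a match is not a result about the members. The matches are shown in 30-base windows. The capitals mark CCAAT, or ATTGG where the match is on the other strand.
DDIT3, chr12:57520586-57520615, minus strand: gCCAATgccggcgtgccactttctgATTGG
CEBPG, chr19:33373611-33373640, plus strand: cagcctgcccacgATTGGtcgactgggctg
CEBPG, chr19:33373672-33373701, plus strand: ggccggcgctcccATTGGccgggatggcgg
The DDIT3 window spans the bases −98 to −69 from the start site, and the CEBPG windows span −98 to −69 and −37 to −8. The C/EBP palindrome TTGCGCAA, its looser form TTNNGCAA, the cyclic AMP element TGACGTCA and the C/EBP-ATF composite TGATGNAA, read on both strands, had no match in these 4 promoters. The shares of all promoters that held them were 0.132%, 9.06%, 1.63% and 3.15%. Every match of the palindrome is also a match of its looser form. The 4 promoters were rich in G and C, with 81.2% for CEBPA, 75.6% for CEBPB, 76.0% for CEBPG and 67.6% for DDIT3, against a median of 58.0% for all promoters. The start of MBD6 lies 58 bases inside the far end of the 250 bases searched for DDIT3, on the opposite strand. In GENCODE 29 a CEBPG transcript starts farther upstream than in RefSeq, and both CEBPG windows lie in its first exon there. The DDIT3 window lies outside the exons of DDIT3.

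CEBPA, the factor of the differentiated hepatocyte, was the most abundant member in Huh7. It was at 169 TPM in Huh7 NC-siRNA, 122 TPM in Huh7 COP1-siRNA, 23.7 TPM in HepG2 NC-siRNA and 23.7 TPM in HepG2 COP1-siRNA. Both Huh7 libraries lay above both HepG2 libraries, and the level with COP1-siRNA was 0.722 times the control in Huh7. The log2 fold change was −0.47 in Huh7 and 0.00 in HepG2. Among the 500 tested genes nearest in mean TPM, the Huh7 value lay at percentile 3.6 and the HepG2 value at percentile 53.6. The single exon of CEBPA collected enough sequence for at least 2939 fragments in Huh7 NC-siRNA, taking inserts of up to 400 bases, so that counting error there was at most 1.84%. The divergent transcript CEBPA-DT, which starts 257 bases away on the other strand, was at 3.32 and 2.74 TPM in Huh7 and at 2.40 and 3.09 TPM in HepG2.

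CEBPB encodes the acute-phase factor C/EBPβ, whose long and short protein forms come from the same mRNA and are not told apart here. Its level was 88.8 TPM in Huh7 NC-siRNA, 67.9 TPM in Huh7 COP1-siRNA, 17.0 TPM in HepG2 NC-siRNA and 20.7 TPM in HepG2 COP1-siRNA. The value with COP1-siRNA was thus below the control in Huh7 and above it in HepG2. The log2 fold changes were −0.38 and 0.27, at percentiles 4.4 and 92.6 of the 500 genes nearest in level. Of the 5 members, CEBPB had the largest mean absolute log2 fold change over the lines, 0.33.

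CEBPD, which encodes the inducible factor C/EBPδ, was the least abundant member in HepG2. The gene (1052) spans 47736913 to 47738164 of chromosome 8 on the minus strand of GRCh38. It was at 30.1 TPM in Huh7 NC-siRNA, 33.6 TPM in Huh7 COP1-siRNA, 5.01 TPM in HepG2 NC-siRNA and 4.26 TPM in HepG2 COP1-siRNA. The sign of the difference was the reverse of that of CEBPB, higher with COP1-siRNA in Huh7 and lower in HepG2. The log2 fold changes of 0.15 and −0.19 lay at percentiles 83.4 and 22.6 of their neighbours in level. In HepG2 NC-siRNA the sequence over CEBPD corresponds to at least 39 fragments, so that counting error was at most 16.0%, a bound about as large as the difference between 5.01 and 4.26 TPM.

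CEBPG encodes C/EBPγ, a small member without an activation domain of its own that acts through its dimer partners, among them ATF4. Its level was 56.2 TPM in Huh7 NC-siRNA, 42.1 TPM in Huh7 COP1-siRNA, 36.9 TPM in HepG2 NC-siRNA and 33.1 TPM in HepG2 COP1-siRNA. CEBPG was the only 1 of the 5 members that was lower with COP1-siRNA in both lines, although with FPKM the HepG2 values of CEBPA and DDIT3, −0.02 and −0.01 in log2, were also below 0. The log2 fold change was −0.41 in Huh7, at percentile 5.4 of its neighbours in level, and −0.15 in HepG2, at percentile 22.2.

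DDIT3 encodes CHOP, a stress-induced partner that keeps other C/EBP proteins from their usual sites. It was at 29.3 TPM in Huh7 NC-siRNA, 27.7 TPM in Huh7 COP1-siRNA, 7.23 TPM in HepG2 NC-siRNA and 7.27 TPM in HepG2 COP1-siRNA. The values within a line lay close together, at log2 fold changes of −0.08 and 0.01 and percentiles 35.8 and 54.2 in Huh7 and HepG2. In both Huh7 libraries DDIT3 stood beside CEBPD at the bottom of the family.

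**Figure D1:**
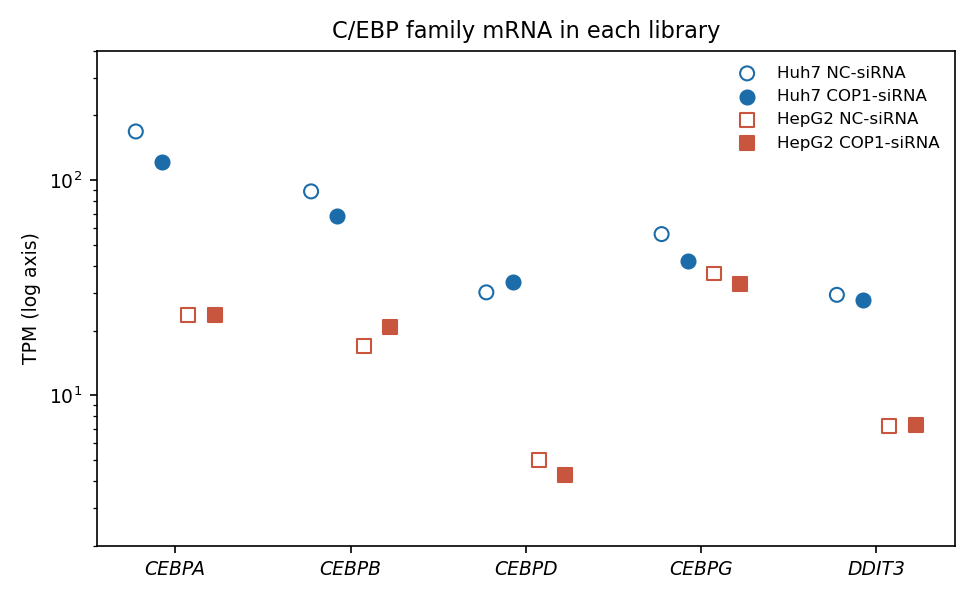
Level of the 5 C/EBP family genes in each library, in TPM on a log axis, with circles for Huh7, squares for HepG2, open symbols for NC-siRNA and filled symbols for COP1-siRNA. Each point is 1 library. For every gene both Huh7 points lie above both HepG2 points, and the gap is smallest for CEBPG, from 42.1 TPM in Huh7 COP1-siRNA to 36.9 TPM in HepG2 NC-siRNA.

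None of the 5 members passed 2-fold with COP1-siRNA in either line. In Huh7 0 of 5 passed, against 141 of all 13000 genes tested (1.08%), and in HepG2 0 of 5, against 135 of 14456 (0.934%). With so few calls among all genes, a count of 0 among 5 is not a result about the members. The median over the 5 was −0.38 in Huh7 and 0.00 in HepG2, beside −0.00083 and −0.0080 on the same log2 scale for all genes tested. In Huh7 CEBPA, CEBPB and CEBPG lay between −0.47 and −0.38, while the standard deviation over all genes was 0.30.

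**Figure D2:**
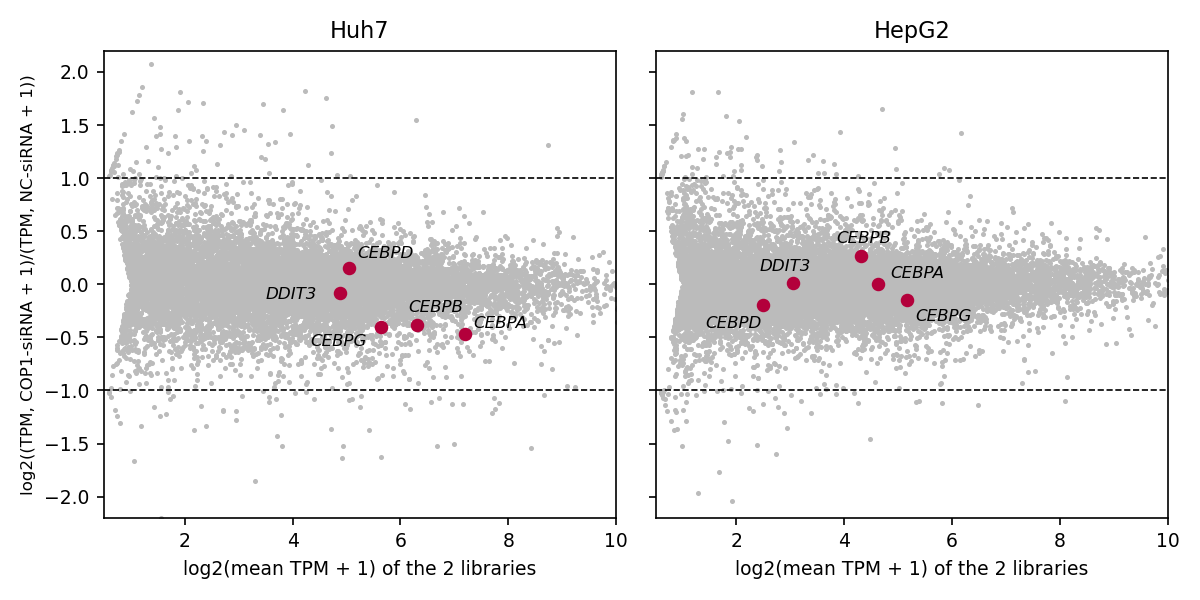
Log2 fold change with COP1-siRNA against the mean level of the gene's 2 libraries, log2(mean TPM + 1), for Huh7 on the left and HepG2 on the right. Grey points are all genes tested, red points the 5 members, and dashed lines mark 2-fold. In Huh7 CEBPA, CEBPB and CEBPG lie between −0.47 and −0.38, below most genes of their level. In HepG2 the 5 members lie between −0.19 and 0.27.

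A model with a term for the line and a term for the siRNA was fitted across 14741 genes with limma, so that the lines stood in for replicates of the siRNA effect. It called 0 of the 5 members and 0 of all genes (0%) at an adjusted p under 0.05, and 1644 genes had an unadjusted p under 0.05. CEBPG, with a shared log2 fold change of −0.28 (SE 0.099) and the same sign in both lines, was the only 1 of the 5 with an unadjusted limma p under 0.05, and its adjusted p was 0.383. The adjusted limma p was 0.549 for CEBPA (−0.23, SE 0.12), 0.927 for CEBPB (−0.056, SE 0.16), 0.972 for CEBPD (−0.020, SE 0.13) and 0.932 for DDIT3 (−0.036, SE 0.11). The fit has 1 residual degree of freedom, and COP1 itself was not called, with a shared log2 fold change of −1.12 and an adjusted limma p of 0.165.

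For each member the difference between the lines with NC-siRNA was larger than its difference with COP1-siRNA in either line. With NC-siRNA, the log2 ratio of Huh7 over HepG2, again on TPM + 1, was 2.78 for CEBPA, 2.37 for CEBPD, 2.32 for CEBPB, 1.88 for DDIT3 and 0.60 for CEBPG. In TPM, CEBPA was 7.11 times as high in Huh7, CEBPD 6.01 times, CEBPB 5.23 times, DDIT3 4.06 times and CEBPG 1.52 times. With COP1-siRNA the log2 ratios were 2.31, 2.72, 1.67, 1.80 and 0.34 in the same order of genes. The neighbours CEBPB and CEBPD in this order differed by less than the gap between their own values with NC-siRNA and COP1-siRNA.

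With NC-siRNA, 4 of 5 members were at least 2-fold higher in Huh7, against 14.7% of all 15055 genes tested, and CEBPG was the exception. The median log2 ratio was 2.32 for the members and −0.37 for all genes, with a standard deviation over all genes of 1.48. The all-gene median depends on the scaling and moved to −0.14 with median-of-ratios scaling, so the members were also placed among all genes. CEBPA lay at percentile 97.1, CEBPD at 95.9, CEBPB at 95.6, DDIT3 at 93.5 and CEBPG at 78.9. The limma line term, for which the 2 libraries of a line stand in for replicates although they differ in siRNA, was called for 5 of 5 members. The same term was called for 11737 of all 14741 genes (79.6%), so the members' count is close to that of genes in general. The adjusted limma p was 1.21e-05 for CEBPA, 1.38e-05 for CEBPD, 2.18e-05 for DDIT3, 7.08e-05 for CEBPB and 0.00513 for CEBPG. Fewer cells of a line with the RNA and less RNA per cell cannot be told apart in bulk libraries. The hepatocyte markers named above were also higher in Huh7. The part of this marker difference in the C/EBP levels was not tested.

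**Figure D3:**
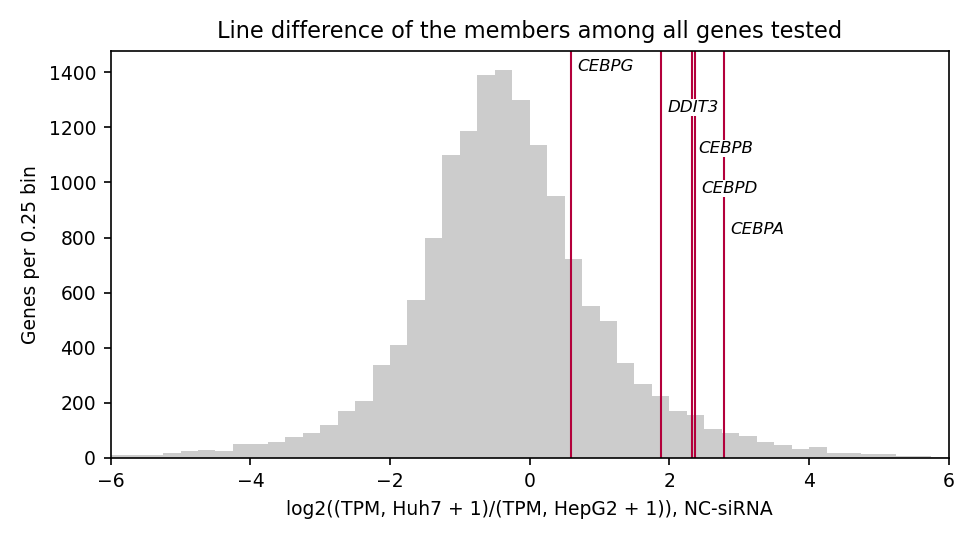
Distribution over all genes tested of the log2 ratio of Huh7 over HepG2 with NC-siRNA, as genes per bin of 0.25, with a red line at each of the 5 members. CEBPA, CEBPD, CEBPB and DDIT3 lie between 1.88 and 2.78 in the right tail, and CEBPG lies at 0.60.

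The make-up of the family also differed between the lines. The summed level of the 5 genes was 373 TPM in Huh7 NC-siRNA, 293 TPM in Huh7 COP1-siRNA, 89.8 TPM in HepG2 NC-siRNA and 89.0 TPM in HepG2 COP1-siRNA, so that Huh7 held 4.16 times as much with NC-siRNA and 3.29 times with COP1-siRNA. CEBPA led in Huh7, with 45.2% of the sum in NC-siRNA and 41.5% in COP1-siRNA. CEBPG led in HepG2, with 41.1% and 37.1%, and held 15.1% and 14.4% in Huh7. This order depends on the measure for CEBPG, whose coverage was low beside its FPKM. The ratio of scaled coverage to FPKM was 0.43 for CEBPG in every library, against 0.99 to 1.00 for CEBPA. Which measure better compares levels between genes was not tested. On scaled coverage CEBPA led in HepG2 too, at 10.3 and 10.0 against 6.84 and 6.05 for CEBPG, and in Huh7 CEBPG, at 9.78 and 7.65, stood below CEBPD, at 12.2 and 14.2. CEBPB made up 23.8% and 23.2% of the sum in Huh7, and 18.9% and 23.2% in HepG2. CEBPD and DDIT3 stayed under 12% in every library, CEBPD from 4.79% to 11.5% and DDIT3 from 7.86% to 9.46%. The order of TPM levels in both Huh7 libraries was CEBPA, CEBPB, CEBPG, CEBPD and DDIT3, and in both HepG2 libraries CEBPG, CEBPA, CEBPB, DDIT3 and CEBPD. In Huh7 NC-siRNA the last pair, at 30.1 and 29.3 TPM, was closer than the counting error of at most 6.30% for CEBPD alone.

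**Figure D4:**
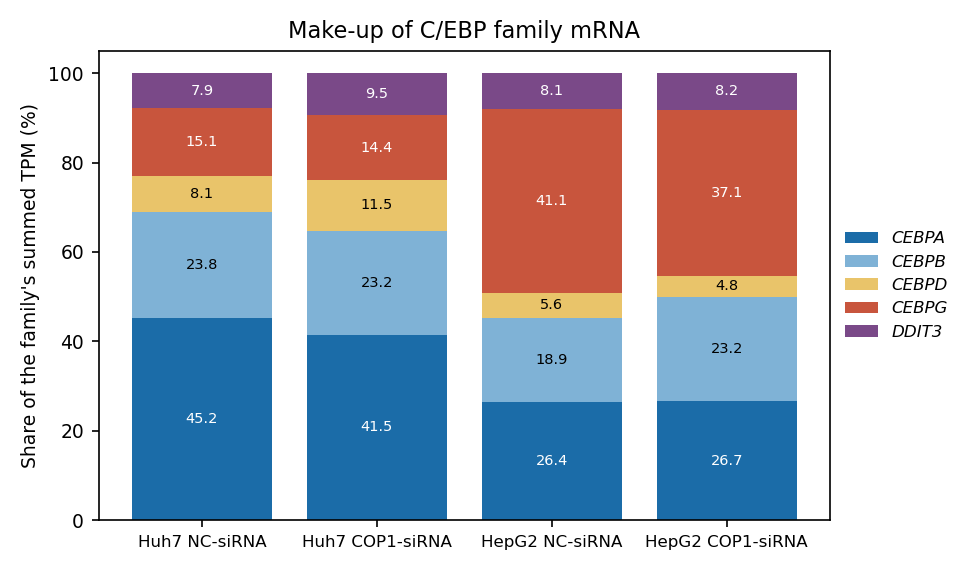
Share of each of the 5 genes in the family's summed TPM, in percent, as 1 stacked bar per library. CEBPA holds 45.2% and 41.5% in the Huh7 bars, and CEBPG holds 41.1% and 37.1% in the HepG2 bars, where CEBPA leads on scaled coverage.

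Other genes that carry the C/EBP name were examined beside the members. CEBPE, a factor of granulocytes, was at 0 in all 4 libraries. CEBPZ, a nucleolar protein that is not of the bZIP class despite its name, was at 45.9 and 44.8 TPM in Huh7 and at 87.9 and 92.6 TPM in HepG2, the opposite order of the lines from that of the 5 members. CEBPZOS, which overlaps CEBPZ on the other strand, was at 25.5 and 27.6 TPM in Huh7 and at 49.98 and 42.0 TPM in HepG2. None of the 3 of these 5 genes that could be tested in each line passed 2-fold with COP1-siRNA. Of all genes tested, 1.08% passed in Huh7 and 0.934% in HepG2.

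For each member, the genes most like it were found among 11431 genes with at least 1 TPM in all 4 libraries, as the Euclidean distance between log2(TPM + 1) values centred on their own mean. This likeness over 4 libraries is a description. The nearest to CEBPA were CPN1, a carboxypeptidase subunit (distance 0.058), INHBE, an inhibin subunit (0.11), and CXCL16, a chemokine (0.13). Those to CEBPB were RGS3 (0.046), SLC26A1 (0.095) and BCL9L (0.096), and those to CEBPD were NFKBIZ, an inducible regulator of NF-κB targets (0.043), the ferritin pseudogene FTH1P20 (0.11) and TUBB6 (0.13). FTH1P20 may share reads with its parent gene, so its values are uncertain. CEBPG was nearest to ARHGEF2 (0.043), TUBA8 (0.053) and ARHGAP18 (0.054), and DDIT3 to DECR2 (0.061), SLC7A2 (0.064) and TMX2 (0.071). No member was among the 3 nearest of another, and the closest pair of members was CEBPB and DDIT3, at a distance of 0.32.

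Of the ligase that acts on C/EBPα, COP1, the target of the siRNA, was the only 1 of the 10 genes listed that passed 2-fold, in Huh7. The shares of all genes tested that passed were 1.08% in Huh7 and 0.934% in HepG2. TRIB1, which links C/EBPα to COP1, was at 56.1 and 54.2 TPM in Huh7 and at 23.4 and 26.5 TPM in HepG2. TRIB2, which does the same, was at 0.017 and 0 TPM in Huh7 and at 1.997 and 2.01 TPM in HepG2. TRIB3, a CHOP target, was at 129 TPM in both Huh7 libraries and at 27.9 and 37.95 TPM in HepG2. CUL4B, a cullin scaffold of the ligase, was at 28.6 and 17.8 TPM in Huh7 and at 71.7 and 55.4 TPM in HepG2, at log2 fold changes of −0.66 and −0.36. The median of the list was −0.02 in Huh7, over 8 genes tested, and 0.05 in HepG2, over 10.

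The bZIP partners gave medians of −0.01 in Huh7, over 11 genes tested, and 0.04 in HepG2, over 12. None of them passed 2-fold, against 1.08% of all genes tested in Huh7 and 0.934% in HepG2. That count is not a result about the list. NFIL3, a repressor that belongs to the bZIP class, was at 58.6 and 37.0 TPM in Huh7 and at 16.8 and 12.0 TPM in HepG2, at log2 fold changes of −0.65 and −0.45. BATF3, a partner in immune cells, was at 5.80 and 9.21 TPM in Huh7 and at 17.3 and 14.6 TPM in HepG2. ATF4, the partner of CEBPG and DDIT3 in the stress response, was at 296 and 293 TPM in Huh7 and at 865 and 872 TPM in HepG2. The line order of ATF4 was thus the reverse of that of the C/EBP members, with almost equal values within a line.

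Among genes that C/EBP factors are known to regulate, the hepatocyte targets gave medians of −0.04 in Huh7, over 14 genes tested, and 0.09 in HepG2, over 11. Of all genes tested, 1.08% passed 2-fold in Huh7 and 0.934% in HepG2. IGFBP1, a secreted binding protein of insulin-like growth factors, was the only 1 of the hepatocyte targets past 2-fold. It was at 9.80 and 3.71 TPM in Huh7 and at 12.4 and 8.98 TPM in HepG2, at log2 fold changes of −1.20 and −0.43. APOB, the core protein of very low density lipoprotein, was at 592 and 547 TPM in Huh7 and at 95.0 and 142 TPM in HepG2. The limma siRNA term called 0 of the 14 hepatocyte targets it tested, as it called 0 of all 14741 genes (0%). IGFBP1 had an adjusted limma p of 0.233.

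Of the acute-phase targets, which C/EBPβ and C/EBPδ are known to drive, 4 of 14 genes tested in HepG2 were at least 2-fold higher with COP1-siRNA. With the same pseudocount of 1, the count was 1 with FPKM in place of TPM and 0 with scaled coverage. Values on these scales are smaller, so the pseudocount weighs more in them. CEBPA in HepG2 NC-siRNA was at 10.3 on both, against 23.7 TPM. With TPM and a pseudocount of 0.1 the count was 6, so the call depends on the pseudocount and on the scale it is added to. Within a library FPKM is proportional to TPM. With TPM and a pseudocount of 1, 78 of all 14456 genes (0.54%) were at least 2-fold higher, and the list's median log2 fold change was 0.51. The 4 were the 3 fibrinogen chains and HPX, the haem-binding protein hemopexin. In HepG2, FGA was at 19.0 and 41.5 TPM, FGB at 6.97 and 15.5 TPM and FGG at 34.4 and 71.7 TPM, with log2 fold changes of 1.09, 1.05 and 1.04. HPX was at 1.67 and 4.82 TPM there, with a log2 fold change of 1.12. Their plain TPM ratios were 2.19 for FGA, 2.23 for FGB, 2.08 for FGG and 2.89 for HPX. CXCL8, a chemokine, was just under the threshold, with 3.78 and 8.33 TPM and a log2 fold change of 0.97. All of these had passed the limit of 1 TPM in at least 1 library, and 11 of the 14 genes tested were above 0.

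In Huh7 the same list had 0 of 17 genes at least 2-fold higher, against 83 of all 13000 (0.638%), and a median of 0.01. Of the 17, 9 were above 0. The highest was SAA1, at 18.0 and 32.7 TPM with a log2 fold change of 0.83. The fibrinogen chains were far more abundant there, with 2068 and 1934 TPM for FGA, 2461 and 2403 TPM for FGB and 1577 and 1674 TPM for FGG. HPX was at 85.8 and 95.0 TPM and CXCL8 at 195 and 237 TPM. The limma siRNA term called 0 of the 18 acute-phase genes tested. It called 0 of all 14741 genes (0%), so that count is not a result about the list. The difference of the siRNA effect between the lines was not tested.

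Against 1.08% of all genes tested in Huh7 and 0.934% in HepG2, 0 of the 9 hepatocyte markers passed 2-fold. The limma siRNA term called 0 of them, as it called 0 of all 14741 genes (0%). In HepG2 the log2 fold changes of all 9 were above 0, with a median log2 fold change of 0.40 and a summed level of 3635 TPM in the control and 4261 TPM after COP1-siRNA. In Huh7 3 of the 9 were above 0, the median was −0.11 and the sum went from 25815 to 23630 TPM. KRT8, a keratin, was at log2 fold changes of 0.13 and 0.57 and APOA1, an apolipoprotein, at −0.14 and 0.44 in Huh7 and HepG2. The 11 markers of other cell types summed to 274 and 260 TPM in HepG2 and to 408 and 390 TPM in Huh7, and none of those tested passed 2-fold. In HepG2 4 of the 5 tested were above 0, with a median of 0.14, among them KRT19 at 0.51 and ACTA2, a smooth muscle marker, at 0.43, while LYZ was at −0.36. In Huh7 2 of the 4 tested were above 0, with a median of 0.00. PECAM1, an endothelial marker, was at 5.08 and 7.36 TPM in Huh7 and at 0.022 and 0.14 TPM in HepG2. The part of the markers in the acute-phase values was not tested.

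**Figure D5:**
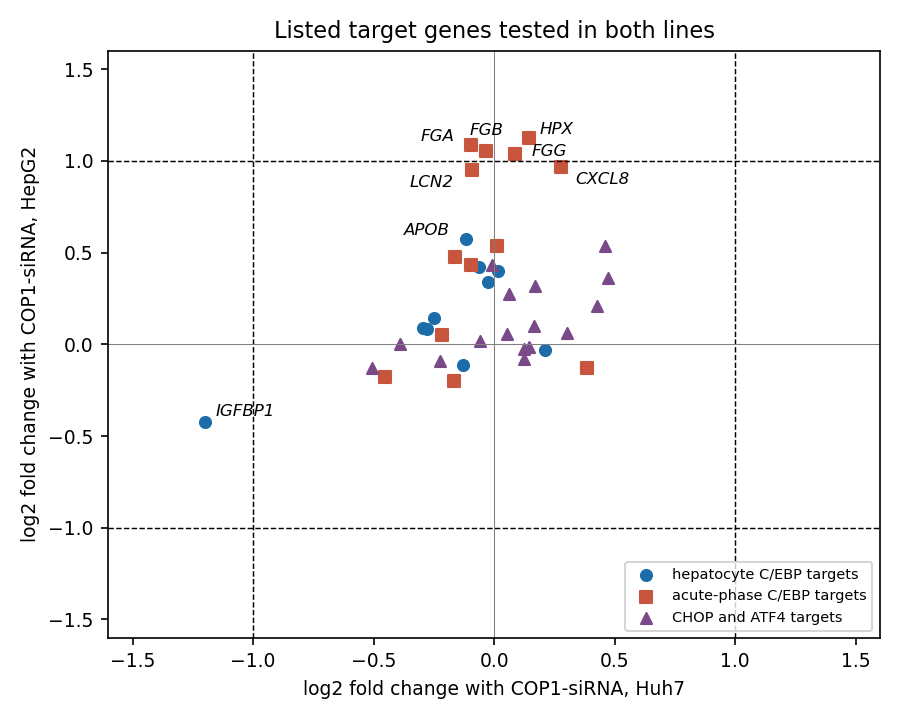
Log2 fold change with COP1-siRNA in Huh7 (x axis) and in HepG2 (y axis) for listed target genes tested in both lines, with circles for hepatocyte targets, squares for acute-phase targets and triangles for CHOP and ATF4 targets, and dashed lines at 2-fold. HPX, FGA, FGB and FGG lie above the upper line in HepG2 and between −0.10 and 0.15 in Huh7. That count of 4 was 1 with FPKM and 0 with scaled coverage at the same pseudocount of 1. It was 6 with TPM and a pseudocount of 0.1. IGFBP1 lies left of the lower threshold in Huh7.

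The targets of CHOP and ATF4 gave medians of 0.13 in Huh7 and 0.06 in HepG2 over 16 genes tested in each line. Of these, 0 passed 2-fold, against 1.08% of all genes tested in Huh7 and 0.934% in HepG2. CHAC1, a glutathione-degrading enzyme of the stress response, was at 4.70 and 6.89 TPM in Huh7 and at 2.12 and 3.02 TPM in HepG2. VLDLR, a lipoprotein receptor, was at 1.91 and 3.002 TPM in Huh7 and at 0.94 and 1.80 TPM in HepG2. In HepG2 it passed the limit of 1 TPM only with COP1-siRNA. Both genes were above the control in both lines, at log2 fold changes of 0.47 and 0.36 for CHAC1 and of 0.46 and 0.53 for VLDLR, with DDIT3 itself at −0.08 and 0.01. The adjusted limma p was 0.332 for CHAC1 and 0.259 for VLDLR.

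The amino acid genes linked to C/EBPγ, a list that also holds CEBPB, gave medians of −0.11 in Huh7 and 0.10 in HepG2. Of the 13 genes tested in each line 0 passed 2-fold, against 1.08% of all genes in Huh7 and 0.934% in HepG2. SLC7A11, the cystine transporter, was at 5.81 and 7.22 TPM in Huh7 and at 9.61 and 15.5 TPM in HepG2. AARS1, the alanyl-tRNA synthetase, was at 212 and 142 TPM in Huh7 and at 114 and 106 TPM in HepG2, at log2 fold changes of −0.58 and −0.11. The shared log2 fold change was 0.45 for SLC7A11 and −0.35 for AARS1, with adjusted limma p of 0.316 and 0.373.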

How the data were processed

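Per the submitters' processing notes, FastQC 0.11.7, Trimmomatic 0.38, HISAT2 2.1.0, StringTie 2.1.3b and edgeR were used with GRCh38. The authors deposited 1 gene table per library. The TPM values deposited sum to 1000000 per library, the FPKM values deposited are per length and library, and the coverage deposited is the mean read depth over the gene, not normalized for depth. The stranded protocol keeps inserts of up to 400 bases. The tables hold gene numbers and no symbols, so symbols came from RefSeq (44698 of 46427 gene numbers, 96.3%). Values of 52 gene numbers on more than 1 line were summed. No member was among them.

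A gene was tested where either library compared had at least 1 TPM, with a pseudocount of 1 and a 2-fold threshold. The limma fit used log2(TPM + 1) of the 4 libraries, terms for line and siRNA, the trend option, genes with at least 1 TPM in at least 2 libraries, and Benjamini-Hochberg adjustment over all of them. Nothing in the labels ties the 2 libraries of a line to separate cultures. Fragments were bounded from coverage times length for the genes of a single exon. Such bounds cover counting error only. The number of reads per library is not given in the sources used here.

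The members and lists were chosen with earlier results of these data known. CEBPB, TRIB3, ATF3, ASNS, HP and the hepatocyte markers ALB, TTR and SERPINA1 stand in more than 1 list. Named genes were the members, other C/EBP-named genes, COP1 and TRIB1 to TRIB3, list genes past 2-fold in either line, the 2 of each list with the largest mean absolute log2 fold change among genes of at least 1 TPM, and the 3 genes most like each member. Other genes (ATF4, ALB, HNF4A, KRT19, PTPRC, DCN, CD68, COL1A1, MARS1, MIR616, MBD6, ACTA2, SAA1, LCN2) were chosen after their values were seen. Alternatives were a pseudocount of 0.1, FPKM, scaled coverage, median-of-ratios and upper-quartile scaling, a 1.5-fold threshold, no minimum TPM, a minimum TPM of 5, protein-coding genes only and limma without trend. Those for the acute-phase count and for the log2 ratio of the lines were added after seeing the data. The code of the fit was run on simulated data whose siRNA effects were the same in both lines. That run does not bear on how well the fit performs on these data. Python 3.11.15, pandas 2.3.3, numpy 2.4.6, matplotlib 3.10.9, R 4.3.3 and limma 3.58.1 were used.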

Additional observations from a re-analysis of the deposited data

Results flagged for a closer look

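Of the 5 members, 4 had opposite signs of the difference with COP1-siRNA in the 2 lines, as did 39.8% of the 11970 genes tested in both. With FPKM the members' count was 2, CEBPB and CEBPD, and the share of all genes was 40.9%. The log2 fold change in Huh7 minus that in HepG2 was −0.65 for CEBPB, −0.47 for CEBPA, 0.35 for CEBPD and −0.087 for DDIT3. The medians of 6 gene lists also had opposite signs, with differences of −0.51 for the hepatocyte markers, −0.11 for the other C/EBP-named genes, −0.072 for the ligase genes, −0.049 for the bZIP partners, −0.13 for the hepatocyte C/EBP targets and −0.22 for the amino acid genes linked to C/EBPγ. With 1 library per line and siRNA, none of these differences was tested.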

How the results depend on the processing

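The count of members past 2-fold was 0 in both lines under every alternative run, and the limma counts of members, 0 for the siRNA and 5 for the line, were also the same. The number of genes past 2-fold, 141 in Huh7 and 135 in HepG2, was 76 and 55 with a minimum TPM of 5, 390 and 372 with a pseudocount of 0.1, and 73 and 52 among protein-coding genes only. The limma siRNA term called 13 genes with a minimum TPM of 5 in place of 0. The acute-phase count was 1 in Huh7 at 1.5-fold in place of 0, and in HepG2 it was 1 with FPKM and 0 with scaled coverage in place of 4. It was 6 in HepG2 with TPM and a pseudocount of 0.1, whereas FPKM and scaled coverage kept the pseudocount of 1. The sign in HepG2 turned for CEBPA, to −0.02 with FPKM and −0.03 with scaled coverage, and for DDIT3, to −0.01 with FPKM. The log2 fold change of CEBPG was −0.41 to −0.32 in Huh7 and −0.16 to −0.13 in HepG2, and its log2 ratio of the lines between 0.46 and 0.85. No call turned to the opposite direction, but the counts of calls moved as given above. Except where fewer genes were tested or the pseudocount weighed differently, the cause of a change was not tested. No paired analysis was possible because each group had 1 library, beyond the line term of the limma fit, and no replicate could be left out. Among CEBPA, CEBPB and CEBPD, the genes with such a bound, counting error was largest for CEBPD in HepG2.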
